A study of Mus musculus with 6 samples.

Results

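Rab genes encode the small GTPases that give membrane compartments their identity. This family was examined in 6 single mouse blastocysts (C57BL/6, embryonic day 3.5) that had grown from injected zygotes. The Dep group (3 embryos) had received small RNAs from sperm of males made depressive by stress, and the Ctl group (3 embryos) small RNAs from sperm of normal males. In both groups the small RNAs were injected at 2 ng/µl, and embryos were cultured and collected about 96 h later. Whether the small RNAs of several males were pooled is not stated. The whole table lists 12149 genes. Members are the protein-coding genes whose mouse symbol in GENCODE M21 is Rab followed by a number and at most a letter. The annotation holds 59 of them and the table lists 47.

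A Rab protein is a switch: bound to GTP it sits on a membrane and recruits motors, tethers and other effectors, and bound to GDP it is extracted into the cytosol. Exchange factors load GTP, GTPase-activating proteins end the active state, and a lipid tail added by geranylgeranyl transferase holds the protein in the membrane. Each compartment carries its own set, from Rab1 between the endoplasmic reticulum and the Golgi to Rab7 on lysosomes. In the blastocyst the outer trophectoderm is a polarized epithelium that pumps fluid into a cavity, and apical and junctional traffic through Rab11 and its relatives is known from such epithelia.

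The 12 genes without a row are Rab33a of the Golgi, Rab4b of recycling endosomes, Rab7b, Rab9b, Rab36 and Rab39b of late endosomes and lysosomes, Rab3c, Rab27b and Rab37 of secretory vesicles, and Rab19, Rab40b and Rab44. Values are normalized counts, which are reads divided by a size factor of each library, and no listed gene averages below 14.2. No value is given here for these 12. All 7 genes of the early endosome are listed, as are 10 of 11 of the endoplasmic reticulum and Golgi, 8 of 9 of recycling endosomes, 9 of 13 of late endosomes, lysosomes and autophagy, 9 of 12 of secretory vesicles, and 4 of 7 with ciliary, ubiquitin ligase or little studied roles.

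Libraries held 16543356 to 21548220 reads in listed genes. Dep 1 stood apart, with 0 reads in 691 listed genes, against 5 to 106 in the other 5 libraries. Several results that lean on it are therefore also given without it. The fixed marker genes of trophectoderm, epiblast and primitive endoderm were each listed (8 of 8 in each list). Of these, Fgf4, Gata4, Sox17 and Sox7 had 0 reads in Dep 1, and Gata4 also in Ctl 3. None of the 7 cumulus and granulosa or 4 fibroblast markers is in the table, and 1 of 4 blood markers is. Trophectoderm markers summed to 2702 FPKM in Dep 1, 1166 in Dep 2 and 1303 in Dep 3, and to 1939 in Ctl 1, 1838 in Ctl 2 and 1284 in Ctl 3. Epiblast markers summed to 128 FPKM in Dep 1, 319 in Dep 2 and 272 in Dep 3, and to 192 in Ctl 1, 256 in Ctl 2 and 186 in Ctl 3. Primitive endoderm markers summed to 172 FPKM in Dep 1, 170 in Dep 2 and 217 in Dep 3. In Ctl 1, 2 and 3 they summed to 170, 203 and 174. Dep 1 thus had the highest trophectoderm and the lowest epiblast sum, and its primitive endoderm sum lay within the range of the other embryos. FPKM here is the read count per kilobase of exon, scaled to the reads in listed genes. Exon length counts every annotated exon base of a gene once, whether or not the transcripts present hold it. The order of genes by level and the shares of paralogues therefore depend on annotated length. This was 2992 bases for Rab11a and 6130 for Rab11b.

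No Rab gene passed the test between Dep and Ctl (limma over all 12149 genes, adjusted p = 0.9997 for each member), where the background was 0 of 12149 genes, or 0.00%. Rab genes with an unadjusted limma p under 0.05 numbered 4 of 47, or 8.51%, against 1.85% of all genes. Of these, Rab6a, Rab2b and Rab32 had lower values in Dep (3 members, where 1.02% of all genes did), and Rab5c had higher values (1 member, against 0.831%). The same 4 members had no overlap between the groups, against 6.90% of all genes (3.09% with Dep above and 3.80% with Dep below), a share near the background. edgeR and DESeq2 on whole reads called 0 members each, against 0.00% and 0.00823% of all genes. Each had 2 members under an unadjusted p of 0.05, Rab5c and Rab6a, against 1.74% and 2.30% of all genes. The count of 4 in limma, beside 225 of all genes, changed with single embryos left out. It was 0 without Ctl 1 (122 of all genes), 1 without Ctl 2 (228) and 2 without Ctl 3 (137). It was 3 without Dep 1 (474 of all genes), 4 without Dep 2 (349) and 1 without Dep 3 (576). The genes counted differed too, as Rab11a, Rab3d, Rab4a and Rab26 each passed it with 1 embryo left out. As whole embryos were lysed, fewer cells of a type and less RNA per cell cannot be told apart.

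The start regions of Rab6a, Rab2b, Rab5c and Rab32 are shown because they are the members whose groups separated. Each line runs 5′ to 3′ on the gene's strand, from 250 bases before to 50 bases after the start (RefSeq, GRCm38.p6). Capitals mark the TATA box letters TATAAA, the CCAAT box, the GC box GGGCGG, the cyclic AMP response half-site TGACGT and the E-box letters CACGTG, searched on both strands.
Rab6a (chr7:100607336-100607635, plus strand): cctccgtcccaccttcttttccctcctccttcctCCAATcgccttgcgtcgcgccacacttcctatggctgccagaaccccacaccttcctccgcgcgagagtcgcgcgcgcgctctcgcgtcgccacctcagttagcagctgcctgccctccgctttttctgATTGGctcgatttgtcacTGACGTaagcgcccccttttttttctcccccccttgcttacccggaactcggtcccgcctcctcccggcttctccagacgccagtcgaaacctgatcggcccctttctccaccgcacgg
Rab2b (chr14:52279346-52279645, minus strand): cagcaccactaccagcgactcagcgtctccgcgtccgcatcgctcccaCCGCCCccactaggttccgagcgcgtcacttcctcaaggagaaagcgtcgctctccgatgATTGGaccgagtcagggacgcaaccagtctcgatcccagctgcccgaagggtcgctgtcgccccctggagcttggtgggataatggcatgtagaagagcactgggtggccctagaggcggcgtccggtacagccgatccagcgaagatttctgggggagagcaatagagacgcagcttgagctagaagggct
Rab5c (chr11:100738166-100738465, minus strand): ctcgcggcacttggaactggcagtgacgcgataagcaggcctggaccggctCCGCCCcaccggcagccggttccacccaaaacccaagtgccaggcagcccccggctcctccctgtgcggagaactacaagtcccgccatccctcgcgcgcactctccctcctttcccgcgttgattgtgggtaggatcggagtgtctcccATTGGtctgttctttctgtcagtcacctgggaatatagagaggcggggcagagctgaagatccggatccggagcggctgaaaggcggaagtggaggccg
Rab32 (chr10:10558158-10558457, minus strand): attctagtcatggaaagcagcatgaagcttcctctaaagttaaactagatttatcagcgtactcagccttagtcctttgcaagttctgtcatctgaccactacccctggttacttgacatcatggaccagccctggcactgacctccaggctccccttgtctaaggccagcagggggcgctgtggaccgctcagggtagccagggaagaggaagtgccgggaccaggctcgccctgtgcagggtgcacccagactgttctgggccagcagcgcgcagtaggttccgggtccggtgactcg

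Rab6a holds CCAAT at 2 places and TGACGT at 1. Rab2b and Rab5c each hold 1 CCAAT and 1 GGGCGG. None of the 5 motifs occurs in the window of Rab32. A match describes letters alone. CCAAT occurs in 37.4% of all 32851 RefSeq start regions and in 41.5% of the 53 regions of the 41 listed Rab genes that matched. GGGCGG occurs in 35.7% of all and 69.8% of Rab regions, TATAAA in 13.6% and 5.66%, TGACGT in 7.51% and 13.2%, and CACGTG in 7.15% and 11.3%. Median GC content was 62.0% in Rab regions and 52.7% over all.

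Levels per length spanned from 0.897 to 159 FPKM (mean of 6 embryos). Rab2a, of traffic between the endoplasmic reticulum and the Golgi, came first at 159 FPKM, Rab1a of the same route had 156, and Rab7, which drives late endosomes to fuse with lysosomes, 156. Then came Rab11a of recycling endosomes at 133 and Rab1b and Rab20 at 111 each. Rab20 is known from endosome and phagosome maturation. The neighbours Rab2a, Rab1a and Rab7 differed by less than their spread: Rab7 averaged 153 ± 19.0 FPKM in Dep and 158 ± 23.1 in Ctl, Rab1a 165 ± 32.2 in Dep and 147 ± 13.6 in Ctl, and Rab2a 151 ± 27.0 in Dep and 167 ± 22.9 in Ctl (SD, n = 3 each). These 6 genes made up 55.5% to 59.6% of the summed FPKM of the family in the 6 embryos.

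Another 17 members lay between 10 and 100 FPKM. In order they were Rab17, Rab9, Rab8a, Rab24, Rab29, Rab6a, Rab18, Rab5a, Rab10, Rab4a, Rab5c, Rab12, Rab11b, Rab35, Rab21, Rab14 and Rab40c. The remaining 24 were below 10 FPKM, and Rab43 at 0.999 and Rab32 at 0.897 were the lowest. The summed level of the family was 1429 ± 51.0 FPKM in Dep and 1437 ± 139 in Ctl (SD, n = 3 each).

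**Figure D1:**
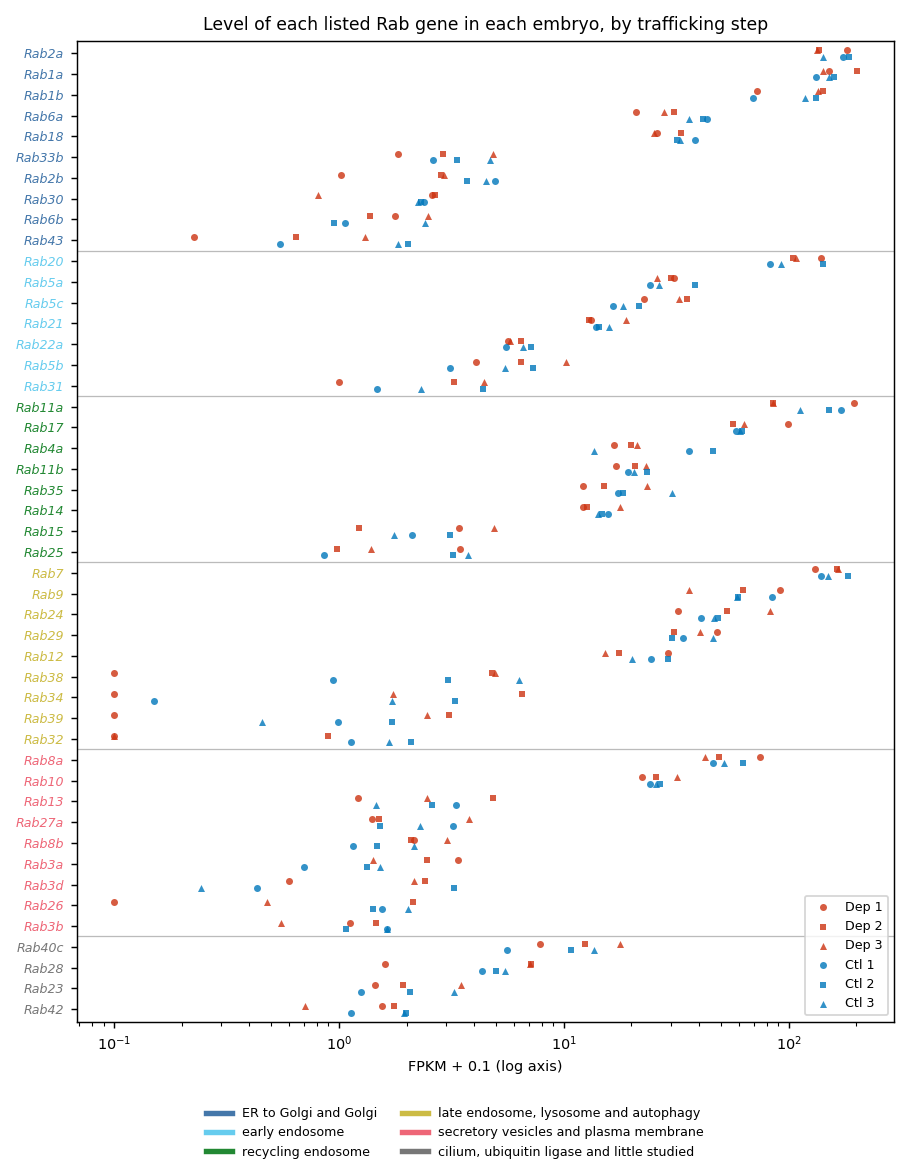
Level of each of the 47 listed Rab genes in the 3 Dep (red) and 3 Ctl (blue) embryos, as FPKM + 0.1 on a log axis, with gene names grouped and coloured by trafficking step. The 6 genes Rab2a, Rab1a, Rab7, Rab11a, Rab1b and Rab20 average over 100 FPKM, and Rab38, Rab34, Rab39, Rab32 and Rab26 drop to 0 reads in Dep 1.

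Among genes of the endoplasmic reticulum and Golgi, 7 of 10 had a lower mean log2 level in Dep and 3 a higher one, with a median log2 fold of -0.26, against -0.02 over all genes. Without Dep 3 the median was -0.07. Rab6a and Rab2b separated the groups. Rab6a directs retrograde traffic to and within the Golgi. It had 1628, 2081 and 1699.6 normalized counts in Dep 1, 2 and 3, and 3149, 2796 and 2352 in Ctl 1, 2 and 3. Every Dep embryo lay below every Ctl embryo. The log2 fold was -0.62 ± 0.26 (SE; limma on log2 of the normalized count + 1, unadjusted p = 0.0378, adjusted p = 0.9997). In GRCm38 Rab6a (ENSMUSG00000030704) spans 100607410 to 100641268 on chromosome 7. Of its exon bases 19.0% are shared with Mrpl48 on the opposite strand, and the library kit does not mark strand. Mrpl48 had 1892, 1092 and 897 normalized counts in Dep 1, 2 and 3, and 1307, 918 and 1170.3 in Ctl 1, 2 and 3, so its groups overlapped.

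Rab2b, a less abundant relative of Rab2a that acts at the Golgi, had 80.1, 207 and 193 normalized counts in Dep 1, 2 and 3, and 395, 271 and 321 in Ctl 1, 2 and 3. Dep 1 was the lowest, and the groups did not overlap. The log2 fold was -1.14 ± 0.51 (SE; limma, unadjusted p = 0.0473, adjusted p = 0.9997), and -0.70 without Dep 1. Rab2b (ENSMUSG00000022159) spans 52261759 to 52279545 on chromosome 14. The gene model Gm43766, not in the table, shares 59.3% of its exon bases on the opposite strand, and Tox4 on that strand shares 4.68% of them.

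Rab2a and Rab1a, the most abundant members of this step, did not separate. Rab1a had 12033, 13891 and 8802 normalized counts in Dep 1, 2 and 3, and 9803, 10816 and 10021 in Ctl 1, 2 and 3. Rab2a had 8098, 5268 and 4674 in Dep, and 7289, 7121 and 5295 in Ctl. The Dep embryos spread more widely than the Ctl embryos in both genes. Rab18, known from lipid droplets and endoplasmic reticulum contacts, had 3692, 4124 and 2827 in Dep, and 5109, 3917 and 3953 in Ctl. Rab43 of the Golgi had 14.6, 54.6 and 109.5 in Dep, and 48.5, 191 and 169 in Ctl. Dep and Ctl overlapped in both of these genes too. Rab43 was lower in each Dep embryo than in the Ctl embryo of the same number, as were 12.6% of all genes. No label links these numbers. The log2 fold of Rab43 was -1.36 ± 0.91 (SE), with an unadjusted limma p of 0.167, and -0.58 without Dep 1. Rab43 shares 75.4% of its exon bases with the gene model Gm45140 on the same strand. Rab1b, Rab33b, Rab30 and Rab6b, all of the Golgi or the route to it, had log2 folds from -0.42 to 0.48.

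Early endosome genes were divided, 4 of 7 having a positive log2 fold, with a median of 0.02, and of 0.38 without Ctl 2. Rab5c, 1 of 3 genes for the Rab5 proteins that start endosome fusion, had 1034, 1396 and 1163 normalized counts in Dep 1, 2 and 3, and 709, 852 and 702 in Ctl 1, 2 and 3. It was higher in every Dep embryo than in any Ctl embryo, with a log2 fold of 0.66 ± 0.29 (SE; limma, unadjusted p = 0.0420, adjusted p = 0.9997). Rab5c (ENSMUSG00000019173) spans 100715009 to 100738215 on chromosome 11. Its exons overlap no other annotated gene.

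The other Rab5 genes did not show this separation. Rab5a had 3397, 2843 and 2229 normalized counts in Dep 1, 2 and 3, and 2474, 3642 and 2447 in Ctl 1, 2 and 3. Rab20 had 4031, 2642 and 2458 in Dep, and 2257, 3541 and 2259 in Ctl. In both the range of Dep lay across that of Ctl, and 25.6% of the exon bases of Rab20 are shared with the gene model E230013L22Rik on the opposite strand. Rab5b, Rab21 of integrin traffic, and Rab22a and Rab31 of endosome sorting had log2 folds from -0.10 to 0.38. Rab5c took 39.3%, 49.3% and 47.3% of the summed Rab5 FPKM in Dep 1, 2 and 3, and 38.0%, 32.1% and 36.4% in Ctl 1, 2 and 3. These shares did not overlap, though Dep 1 and Ctl 1 lay close together. They rest on the same Rab5c reads as the counts above, so they are not a second result. Of the 17 paralogue shares computed in 7 subfamilies, no other separated the groups. Shares within a subfamily sum to a fixed total, so they are not independent. No background for such shares was computed.

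**Figure D2:**
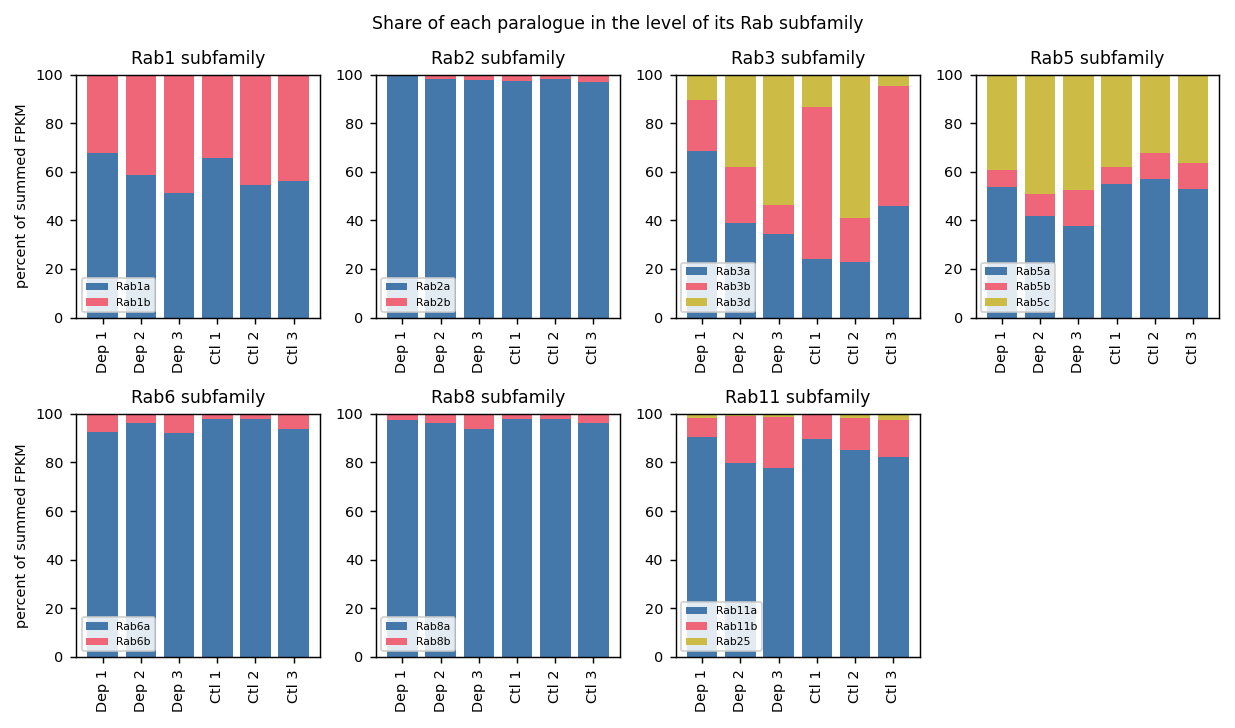
Share of each paralogue in the summed FPKM of its Rab subfamily, 1 bar per embryo, Dep on the left and Ctl on the right of each panel; Rab25 is shown with Rab11. Rab5c takes 39.3% to 49.3% in Dep and 32.1% to 38.0% in Ctl, while Rab2, Rab6, Rab8 and Rab11 are each led by their a gene in all 6 embryos.

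Rab11, Rab2, Rab6 and Rab8 were each led by 1 gene. The lowest share in any embryo was 97.0% for Rab2a, 92.1% for Rab6a and 93.6% for Rab8a of the subfamily's FPKM. Rab11a took 90.6%, 79.8% and 77.8% in Dep 1, 2 and 3, and 89.5%, 85.2% and 82.2% in Ctl 1, 2 and 3. Rab1 was shared, Rab1a having 59.2% ± 8.19 in Dep and 58.7% ± 5.92 in Ctl (SD, n = 3 each). The Rab3 subfamily, at 1.15 to 1.70 FPKM per gene, had no steady leader: Rab3d took 58.8% in Ctl 2 and 4.63% in Ctl 3. The coding sequences of paralogues in a subfamily were identical at 65.5% to 79.2% of aligned bases, and how reads matching several paralogues were assigned is not stated.

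Recycling endosome genes had 6 of 8 log2 folds below 0 and a median of -0.21, and of -0.03 without Dep 2. Rab11a, which returns cargo from recycling endosomes to the surface, had 12229, 4629 and 4178 normalized counts in Dep 1, 2 and 3, and 9964, 8158 and 5877 in Ctl 1, 2 and 3. Dep 1 was the highest of the 6 embryos and Dep 2 and 3 were the lowest. The log2 fold was -0.34 ± 0.41 (SE; limma, unadjusted p = 0.427), and -0.83 without Dep 1 (unadjusted p = 0.0136; smallest adjusted p of any member in that fit, 0.987). Without Dep 2 and without Dep 3 it was -0.13 and -0.06. The trophectoderm marker sum given above was likewise highest in Dep 1, followed by Ctl 1 and Ctl 2, and the epiblast sum was lowest in Dep 1. Their part in the level of Rab11a was not tested.

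Rab17, a recycling Rab known mainly from polarized epithelia, had 4123, 2036 and 2052 normalized counts in Dep 1, 2 and 3, and 2262, 2218 and 2126 in Ctl 1, 2 and 3. Dep 1 alone stood out, and the other 5 embryos lay close together. Rab25, the epithelial member of the Rab11 subfamily, had 118, 26.8 and 35.4 in Dep, and 24.9, 94.3 and 108 in Ctl. It was at most 2.69% of the Rab11 subfamily's FPKM, and both groups held high and low embryos.

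Rab4a, of rapid recycling from early endosomes, had 611, 632 and 608 normalized counts in Dep 1, 2 and 3, and 1240.3, 1453 and 417 in Ctl 1, 2 and 3. The Dep embryos were nearly equal, and Ctl 3 lay below them. The log2 fold was -0.56 ± 0.45 (SE; limma, unadjusted p = 0.241), -1.12 without Ctl 3 and -0.22 without Ctl 2. Rab35, of endosome recycling and cytokinesis, had 715, 765 and 1079 in Dep, and 961, 923 and 1489.8 in Ctl. Rab11b, Rab14 and Rab15 had log2 folds from -0.08 to 0.28. Rab11b averaged 2261 ± 76.4 normalized counts in Dep and 2359 ± 188 in Ctl (SD, n = 3 each).

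**Figure D3:**
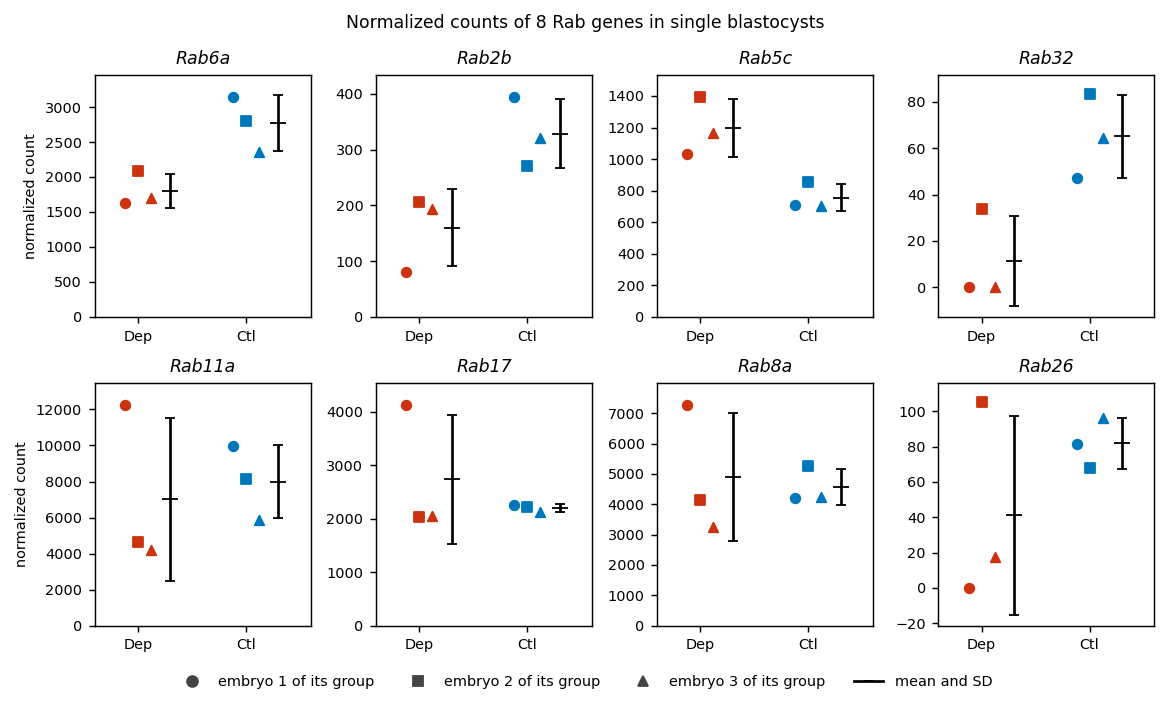
Normalized counts of 8 Rab genes in each embryo, Dep (red) left of Ctl (blue), with the mean and SD of 3 embryos; SD bars may reach below 0 where embryos have 0 reads. Rab6a, Rab2b, Rab5c and Rab32 do not overlap between groups, and Rab11a, Rab17 and Rab8a are highest in Dep 1.

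Of the late endosome, lysosome and autophagy genes, 7 of 9 had a log2 fold below 0, with a median of -0.27. This median was -0.02 without Dep 1, where 4 of 9 folds were above 0, -0.04 without Dep 3 and -0.04 with DESeq2. Rab38, Rab34, Rab39 and Rab32, all in this group, had 0 reads in Dep 1. Rab7 had 7171, 7729.9 and 7072 normalized counts in Dep 1, 2 and 3, and 7125, 8626 and 6859 in Ctl 1, 2 and 3. Its log2 fold was -0.03 ± 0.24 (SE; limma, unadjusted p = 0.889). Rab9, of transport from late endosomes to the Golgi, had 3330.2, 1976 and 1027 in Dep, and 2879.5, 1870.2 and 1795 in Ctl. Dep held both its highest and its lowest value. Rab9 is the single listed member on the X chromosome (166457253 to 166479867). Xist, the RNA of the inactive X, had 151, 3783 and 5589 in Dep, and 10312, 5518 and 874 in Ctl.

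Rab32, of melanosomes and other lysosome-related organelles, had 0, 33.8 and 0 normalized counts in Dep 1, 2 and 3, and 47.3, 83.5 and 64.4 in Ctl 1, 2 and 3. These are 0, 34 and 0 reads in Dep and 40, 100 and 73 reads in Ctl. A count of 0 allows up to 3 reads, or 3.64 normalized counts in Dep 1 and 2.53 in Dep 3, covering counting error only. Every Dep embryo was below every Ctl embryo. The log2 fold was -4.30 ± 1.74 (SE; limma, unadjusted p = 0.0317, adjusted p = 0.9997), and -3.45 without Dep 1. Its size depended on the small number added before taking logs: it was -2.17 with 10 in place of 1 and -1.04 on FPKM values, and DESeq2 gave -2.53 (unadjusted p = 0.118). Rab32 (ENSMUSG00000019832) spans 10545002 to 10558265 on chromosome 10.

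Rab38, which acts with Rab32 in melanosomes, had 0, 134 and 126 normalized counts in Dep 1, 2 and 3, and 26.0, 84.3 and 172 in Ctl 1, 2 and 3. Rab34, of lysosome positioning, had 0, 279 and 64.0 in Dep, and 2.37, 136 and 68.0 in Ctl. Rab39, known from phagosomes and autophagy, had 0, 161 and 115 in Dep, and 52.1, 86.8 and 18.5 in Ctl. Apart from Dep 1, Dep 2 and 3 lay within or above the Ctl range for all of them. With Dep 1 left out, the log2 folds of Rab38, Rab34 and Rab39 were 0.83, 2.09 and 1.61, against -1.52, -0.27 and -0.76 with it.

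Rab24, of autophagy, shares 62.4% of its exon bases with Prelid1 on the opposite strand, which had 9050 to 14846 normalized counts, so its own level is uncertain. Rab29, of the lysosome and trans-Golgi, and Rab12, of receptor degradation, had log2 folds of 0.12 and -0.30. Both were highest in Dep 1.

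Secretory vesicle and plasma membrane genes had 6 of 9 log2 folds above 0 and a median of 0.05, which turned to -0.03 without Ctl 3. Rab8a, which moves vesicles to the cell surface and the cilium, had 7263, 4158 and 3252 normalized counts in Dep 1, 2 and 3, and 4218, 5260.0 and 4232 in Ctl 1, 2 and 3. Dep 1 was again the highest and Dep 3 the lowest. Rab10, of basolateral and insulin-responsive traffic, had 1626, 1625 and 1831 in Dep, and 1649.8, 1687 and 1575 in Ctl. It varied least of all members, with a within-group SD of 0.0788 on the log2 scale.

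Rab8b, a less abundant relative of Rab8a, had 204, 171 and 226 normalized counts in Dep 1, 2 and 3, and 98.2, 117 and 171 in Ctl 1, 2 and 3. Rab3a, of regulated exocytosis and known in mouse eggs from cortical granule release, had 153, 95.3 and 48.0 in Dep, and 26.0, 49.3 and 55.6 in Ctl. Rab3d, of secretory granules, had 43.7, 176 and 142 in Dep, and 27.2, 238 and 10.6 in Ctl. All 3 overlapped between the groups, Rab8b only by the near tie of Dep 2 and Ctl 3. Their log2 folds were 0.66 ± 0.50, 1.08 ± 0.79 and 1.28 ± 1.12 (SE). That of Rab3d was 0.34 without Ctl 3, 2.52 without Ctl 2 (unadjusted p = 0.0416) and 0.39 with DESeq2, and that of Rab3a was 0.69 without Dep 1.

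Rab26, of secretory granules, had 0, 105 and 17.7 normalized counts in Dep 1, 2 and 3, and 81.7, 67.6 and 96.2 in Ctl 1, 2 and 3. Dep 2 was the highest of the 6 and the other Dep embryos were the lowest. The log2 fold was -2.71 ± 1.54 (SE; limma, unadjusted p = 0.108), -0.88 without Dep 1 and -0.99 with edgeR. Its exons share 9.36% of their bases with Traf7 on the same strand. Rab13 of tight junctions, Rab27a of granule docking and Rab3b had log2 folds from -0.61 to 0.07.

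The 4 listed genes outside these steps gave 2 log2 folds above 0 and 2 below, with a median of -0.06 that turned to 0.36 without Dep 1 and 0.12 without Ctl 3. Rab40c, which carries a SOCS box and joins a ubiquitin ligase, had 500.2, 690.2 and 898 normalized counts in Dep 1, 2 and 3, and 334, 594 and 732 in Ctl 1, 2 and 3. Rab28, of the cilium, had 142, 579 and 519.9 in Dep, and 376, 399.9 and 427 in Ctl. Its Dep embryos enclosed the Ctl range. Rab23, which restrains Hedgehog signalling, and Rab42 had log2 folds of 0.07 and -0.40.

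**Figure D4:**
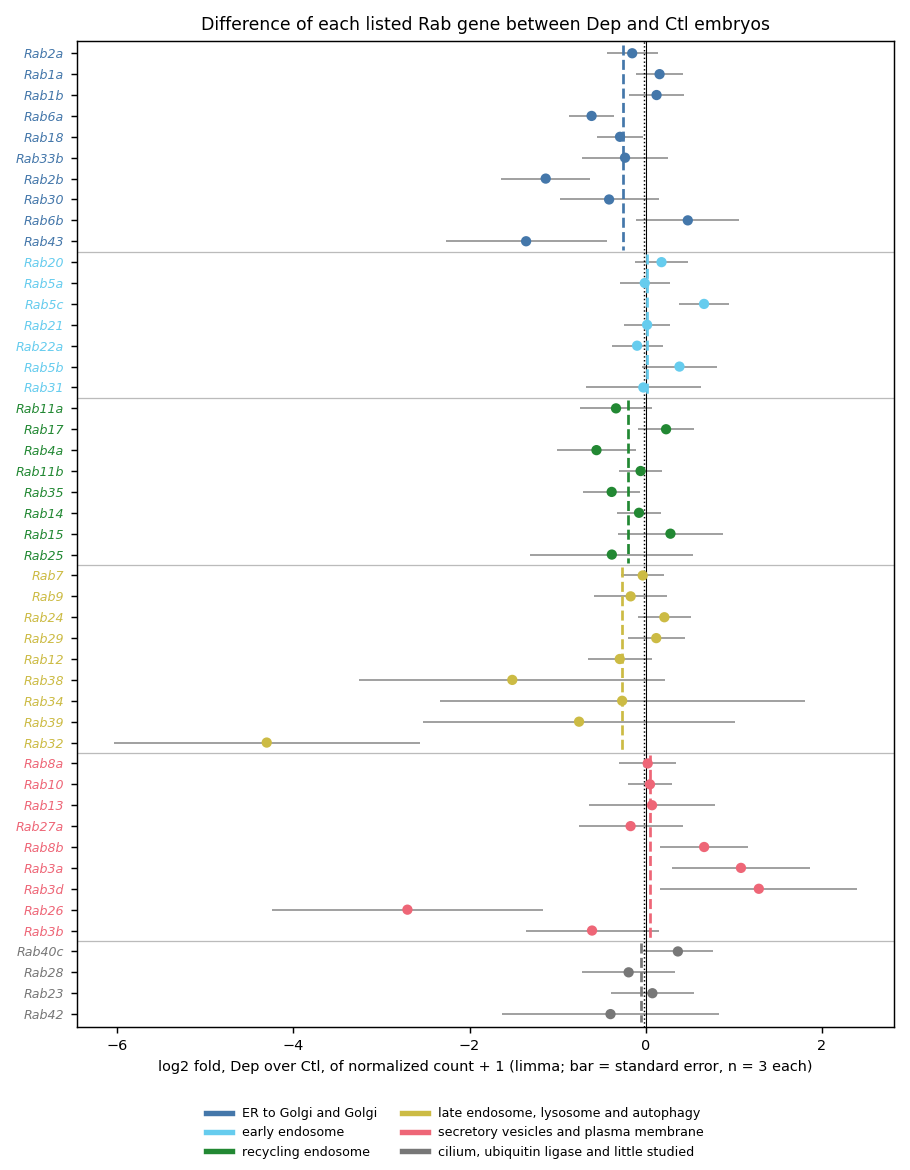
Log2 fold of each listed Rab gene, Dep over Ctl, with its standard error (limma, n = 3 each); dashed lines give the median of each step and the dotted line the median of all genes. The medians lie between -0.27 and 0.05, and the 5 widest errors belong to genes with 0 reads in an embryo.

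Over the whole family 19 log2 folds were above 0 and 28 below, with a median of -0.08, against 48.2% of all genes above 0 and a median of -0.02. The medians of the 6 steps ran from -0.27 to 0.05, and as given above each moved with single embryos. Recycling endosome genes held 24.2%, 14.9% and 17.3% of the family's summed FPKM in Dep 1, 2 and 3, and 23.6%, 20.1% and 18.8% in Ctl 1, 2 and 3. Early endosome genes held 14.5%, 14.0% and 14.8% in Dep, and 10.9%, 14.7% and 12.3% in Ctl. In both steps the groups overlapped. An absolute log2 fold of 1 or more was found for 7 members, or 14.9%, against 12.2% of all genes. They were Rab26, Rab2b, Rab32, Rab38, Rab3a, Rab3d and Rab43, all below 10 FPKM. The count depended on the scale and on Dep 1. With DESeq2 it was 4 (Rab2b, Rab32, Rab3a and Rab43), against 7.32% of all genes. Without Dep 1 it was 5 (Rab25, Rab32, Rab34, Rab39 and Rab3d), against 10.2% of all genes.

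Dep and Ctl embryos of the same number were also compared, though no label links them and it is not established that they are pairs. In all 3 pairs 6 members were lower in Dep, namely Rab2b, Rab32, Rab33b, Rab35, Rab43 and Rab6a, or 12.8%, against 12.6% of all genes. In all 3 pairs 4 members were higher in Dep, namely Rab1b, Rab40c, Rab5c and Rab8b, or 8.51%, against 12.6% of all genes. Both shares are near or below the background.

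Dep 1 was the highest of the 6 embryos for 11 of 47 members, or 23.4%, against 24.3% of all genes, and the lowest for 15, or 31.9%, against 29.7%. It was highest for Rab11a, Rab12, Rab17, Rab20, Rab25, Rab29, Rab2a, Rab30, Rab3a, Rab8a and Rab9. Dep 1 had 0 reads in 5 members, against 5.69% of all genes. For 4 of them, Rab26, Rab34, Rab38 and Rab39, it was the only such embryo, or 8.51% of members against 5.14% of all genes. Dep 3 was the lowest embryo for 13 members, or 27.7%, against 15.4% of all genes, Rab11a, Rab18, Rab1a, Rab2a and Rab8a among them. Ties count for each embryo, so Rab32, with 0 reads in both Dep 1 and Dep 3, is in both counts of lowest values. The within-group SD on the log2 scale had a median of 0.54 over Rab genes and 0.54 over all genes, and was 0.35 for members at 10 FPKM or more and 0.81 for the rest. For all genes these medians were 0.40 and 0.67.

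Genes that act on Rab proteins did not pass the test either. Called genes numbered 0 of 7 listed for prenylation and recycling of the GDP form, 0 of 46 exchange factors, 0 of 34 GTPase-activating proteins and 0 of 43 effectors (limma, adjusted p over all genes). None of them had an unadjusted p under 0.05, against 1.85% of all genes. Median log2 folds were -0.04, 0.04, 0.01 and -0.11. St5, an exchange factor gene of the DENN family, had the smallest unadjusted p, 0.0542, with 126 ± 75.9 normalized counts in Dep and 291 ± 91.1 in Ctl (SD, n = 3 each). Its value was 38.9 in Dep 1, 180 in Dep 2 and 158 in Dep 3. Dennd5b of the same family had 231 ± 54.1 in Dep and 439 ± 147 in Ctl. Of the activating proteins, Tbc1d8 had 109 ± 43.7 in Dep and 228 ± 61.7 in Ctl, and Tbc1d2b 336 ± 150.1 in Dep and 594 ± 193 in Ctl. The effectors Myo5a, a motor for Rab-bound vesicles, and Osbpl1a, a sterol sensor on late endosomes, had 156 ± 59.1 and 224 ± 77.6 in Dep, and 298 ± 84.4 and 374 ± 48.9 in Ctl. Chm, the escort of new Rab proteins, and Rabggtb, a subunit of geranylgeranyl transferase, had log2 folds of -0.35 and -0.18.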

How the data were processed

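Single blastocysts (3 Dep, 3 Ctl) were lysed and cDNA made with SMART-Seq v4, per the labels' protocols; that kit does not mark strand. HISAT2, Cufflinks 2.2.1 and the build mm10 appear in the submitters' processing notes, which assign them no step. How reads were counted is not given in the sources used here. Deposited signal values are read counts divided by 1 size factor per library, per their values: all (100%) were whole multiples of 1 step per library (tolerance 0.01). For Dep 2 the step, 0.993, is too near 1 to be told from rounding by this check. Per the file headers, the authors also deposited log2 fold changes with errors, a test score, p-values and adjusted p-values, which were not used for results. DESeq2 on the whole reads, Dep 2 included, gave the deposited log2 folds of Rab32 (-2.5307) and Rab2a (-0.1274). Depth was 16543356 to 21548220 reads in listed genes. Reads carry no molecular identifiers.

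GENCODE M21 (GRCm38, the assembly that mm10 names) gave names and exon lengths for 11829 of 12149 identifiers. 320 did not match. The main test was limma 3.58.1 with a mean-variance trend on log2(normalized count + 1), as planned for values that are not counts, with Benjamini-Hochberg adjustment over all genes and a threshold of 0.05. On this scale the fold of a low gene depends on the number added: for Rab32, Rab26 and Rab38 it was larger than in the count models. The fold of Rab3d was also larger than in the count models, but moved less with the number added (1.31 with 0.5 and 1.00 with 10). edgeR 4.0.16 and DESeq2 1.42.0 on whole reads, pseudocounts of 0.5 and 10, a minimum mean of 100, TMM scaling, FPKM, no trend, library weights, a replicate block and each embryo left out were alternatives (R 4.3.3, Python 3.11.15). The fits were tested on simulated data. Members and lists were chosen with earlier results of these data known, so lists are described without tests. Values per embryo are given for the 2 most abundant genes of each step, the 12 of smallest p, those with 0 reads in an embryo and Rab25, Rab11a, Rab5c and Rab7 (Rab27b, also in the rule, has no row); the 2 genes of smallest p are named from each list of regulators. The promoter motifs were chosen after the results were seen.

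No label ties embryos to parents, donors of small RNA or days of injection, so p-values measure the spread between these embryos. Deviations of same-numbered embryos of the 2 groups had r = 0.133, 0.151 and 0.129 across genes. For embryos of different number r ran from -0.158 to 0.0445. Deviations sum to 0 within each group, so these values are not independent and do not establish pairs, and no label links the numbers. The main test therefore left the embryos unpaired, and comparisons by number are description only. A chi-square comparison of the libraries within each group found no duplicated pair. Dep libraries were not compared with Ctl libraries in this way.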

Additional observations from a re-analysis of the deposited data

How the results depend on the processing

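No Rab or regulator gene was called in any of the 16 alternatives, including edgeR, DESeq2 and the replicate block. DESeq2 called 1 of all genes, none of them a Rab gene. The smallest adjusted p of a member was 0.838, without Dep 3, and 0.941 with the replicate block, which changed no call. The block, which matched embryos by number, left 3 members under an unadjusted p of 0.05, beside 420 of all genes. That count was 4 in the main test (225 of all genes). It was 2 with a minimum mean of 100, which removed 10 members (172 of the genes kept). It was also 2 without a trend (310 of all genes), with edgeR (211) and with DESeq2 (279). With library weights it was 1 (399 of all genes), and with an embryo left out 0 to 4 (122 to 576). The family's median log2 fold stayed between -0.11 and -0.01 in all settings. The median of all genes moved too, from -0.0351 without Ctl 1 to 0.0358 with edgeR. Without Ctl 2 the family's median, -0.0248, was not below that of all genes, -0.0264. In every other setting it was below. Rab6a, Rab2b, Rab32 and Rab5c kept their direction in every setting that tested them. As their groups did not overlap, leaving out an embryo or changing the pseudocount could not have reversed it. With an embryo left out, step medians ranged from 0.0045 to 0.38 for the early endosome (the highest without Ctl 2), from -0.24 to 0.36 for cilium and little studied genes (the highest without Dep 1), from -0.30 to -0.0203 for late endosomes (the highest without Dep 1), from -0.19 to -0.0341 for recycling endosomes (the highest without Dep 2), from -0.0299 to 0.15 for secretory vesicles (the lowest without Ctl 3) and from -0.36 to -0.0655 for the endoplasmic reticulum and Golgi (the highest without Dep 3).

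Of 47 members, 19 kept their sign in all settings. With an embryo left out, log2 folds spanned 0 in Rab1b (-0.11 to 0.34), Rab2a (-0.39 to 0.0066), Rab5a (-0.16 to 0.18), Rab7 (-0.0991 to 0.0661), Rab8a (-0.31 to 0.27), Rab9 (-0.58 to 0.27), Rab10 (-0.0099 to 0.0764), Rab11b (-0.11 to 0.0037), Rab13 (-0.43 to 0.51), Rab14 (-0.17 to 0.0101), Rab15 (-0.07 to 0.89), Rab17 (-0.11 to 0.40), Rab20 (-0.0418 to 0.39), Rab21 (-0.0792 to 0.12), Rab22a (-0.16 to 0.0055), Rab23 (-0.24 to 0.40), Rab24 (-0.0362 to 0.46), Rab25 (-1.04 to 0.0283), Rab27a (-0.57 to 0.15), Rab28 (-0.56 to 0.45), Rab29 (-0.12 to 0.30), Rab30 (-0.80 to 0.28), Rab31 (-0.40 to 0.55), Rab33b (-0.52 to 0.0247), Rab34 (-1.97 to 2.09), Rab38 (-2.71 to 0.83), Rab39 (-2.06 to 1.61) and Rab42 (-0.65 to 0.093). The number of members with an absolute log2 fold of 1 or more, 7 in the main test, ran from 1 on FPKM values to 8. It was 8 with a pseudocount of 0.5, without Dep 2 and without Dep 3. The FPKM fit used log2(FPKM + 1), which shrinks the folds of genes at low FPKM. Shares of all genes were computed only for the main test, DESeq2 and the fit without Dep 1, as given above. Among the fits with an embryo left out, 11 members changed sign without Dep 1 alone. Outside these, the values of changed sign were Rab34 0.20 and Rab39 0.11 with a pseudocount of 10, Rab34 0.26, Rab31 0.0185 and Rab39 0.33 on FPKM values, Rab29 -0.0502, Rab21 -0.0365, Rab34 1.20, Rab15 -0.16, Rab31 0.22, Rab28 0.24, Rab8a -0.17 and Rab39 0.79 with library weights, Rab34 0.74, Rab31 0.0428, Rab28 0.0473 and Rab39 0.81 with edgeR and Rab34 0.73, Rab31 0.0404, Rab28 0.0452 and Rab39 0.81 with DESeq2. None of these folds was called in any setting, and the cause was not tested. With 3 embryos per group the standard error of a log2 fold reached 2.07 for Rab34, so the low genes are the least certain.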
